A study of Mus musculus with 30 samples.

Results

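The data described here compare WT murine erythroleukemia (MEL) cells after 5 days of differentiation with undifferentiated WT MEL cells, across all genes. MEL cells are a mouse erythroid precursor line, transformed by Friend virus, that leaves its growth state and makes hemoglobin when DMSO is added to the medium. The 10 libraries were chosen by their labels and were part of 30 in the series: 5 from WT cells at day 0 and 5 from WT cells differentiated for 5 days in 1.5% DMSO. The day 5 cells differed from the day 0 cells both in DMSO and in time of culture, and these cannot be told apart. The rest of the series holds day 2 of the same cells and a single CRISPR/Cas9 clone labelled Abcb10-null, which lacks the mitochondrial transporter under study, at the same times and under the same treatment. The study calls its samples biologic replicates, and since neither the labels nor the methods say whether they were grown on separate days, p-values here measure the spread between these libraries. In RNA from whole cultures, fewer cells of a type and less RNA per cell cannot be told apart.

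Terminal erythroid differentiation turns a dividing precursor into a cell filled with hemoglobin. Under the transcription factors Gata1, Tal1 and Klf1 the cell raises heme synthesis, iron uptake, globin and membrane skeleton genes, while Myb, Myc and Spi1, which hold progenitors in a growing state, decline. Ribosome production and DNA replication end over the last divisions, and mitochondria and ribosomes are later cleared.

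Of 54532 genes in the table, 39138 had a count in these libraries and 12723 passed the filter on low counts and were tested. Day 0 libraries held 14364618 to 19140072 counts and day 5 libraries 10498239 to 15201583. Levels are given as CPM, counts scaled to library size, which grow with transcript length and so compare a gene with itself between libraries, not with another gene. The labelled cell type was checked with markers: 13 of 13 erythroid markers had a mean over 1 CPM at day 5 (12 of 13 at day 0), and together they came to between 2765 and 3002 CPM at day 0 and between 13459 and 27145 CPM at day 5. None of 9 myeloid and mast cell, 4 lymphoid or 5 endothelial and stromal markers had a mean over 1 CPM at either day. These markers do not stand for every gene of their class. A separate list of 31 myeloid and mast cell genes, described below, had 15 that passed the filter. It summed to between 641 and 763 CPM at day 0 and between 492 and 1819 CPM at day 5. The sum includes Csf2rb, which rose most in the list (log2 fold change 4.68) and whose levels are given below. Of the 15 genes, 12 were lower at day 5. Among 6 megakaryocyte markers 3 exceeded 1 CPM at day 0 and 4 at day 5, and their summed level ran from 319 to 422 CPM and from 253 to 426 CPM; the part of such cells in the results was not tested.

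Most genes changed. With edgeR's quasi-likelihood test and Benjamini-Hochberg adjustment, 9065 of 12723 genes (71.2%) passed an adjusted p of 0.05, 4649 higher at day 5 (36.5%) and 4416 lower (34.7%). Past a log2 fold change of 0.58, 3747 (29.5%) were higher and 3539 (27.8%) lower. Every day 5 library lay above every day 0 library for 3533 genes (27.8%) and below for 3678 (28.9%). The median log2 fold change over all genes tested was 0.02 and the median of its absolute size 0.77. Changes over 4-fold were found for 790 genes higher and 650 lower, and changes over 32-fold for 59 higher and 33 lower. The genes with the highest counts leaned down: among genes with a mean of at least 100 CPM, 46.5% were lower and 34.4% higher, and the median log2 fold change was -0.19.

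**Figure D1:**
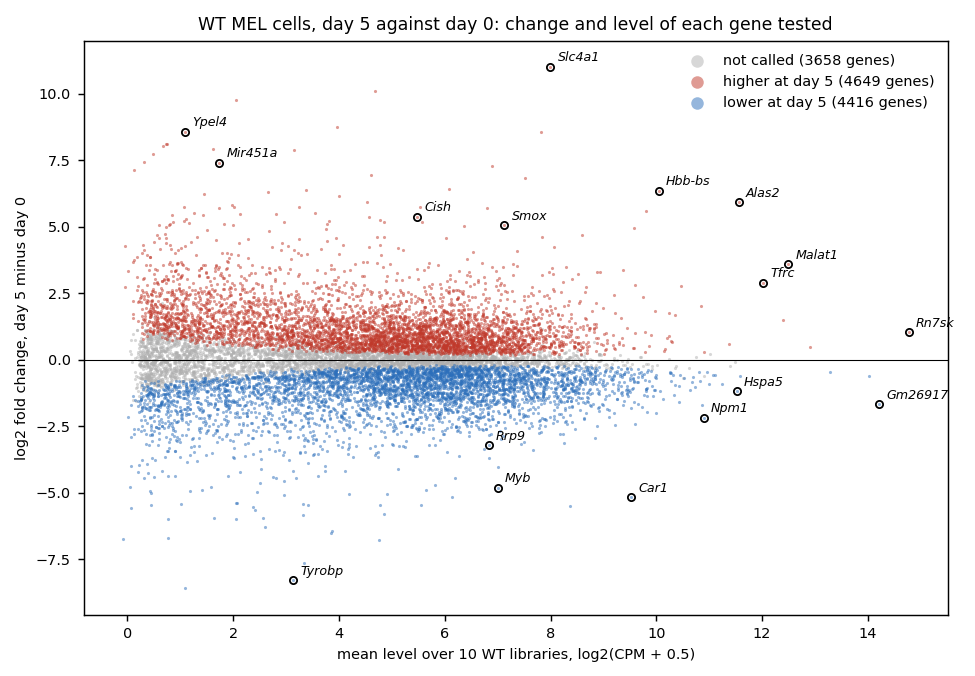
Each point is a gene tested; the horizontal axis is its mean level over the 10 WT libraries as log2(CPM + 0.5) and the vertical axis its log2 fold change, day 5 minus day 0. Red points (4649 genes) were called higher, blue points (4416) lower and grey points were not called; Slc4a1 (11.02) is the highest point.

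Day 5 libraries differed in the size of their changes. When each gene's difference from the day 0 mean in a day 5 library was set against the mean difference in the other day 5 libraries on the log2 scale, the slope was 93.2% in replicate 1, 120.6% in replicate 2, 94.3% in replicate 3, 104.5% in replicate 4 and 77.3% in replicate 5. Replicate 5 showed the smallest changes and replicate 2 the largest. For the larger shifts of a call or a count without either library, values without it are given beside it. Smaller shifts are not all given.

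Heme synthesis genes rose without exception. All 9 genes of the pathway enzymes were called higher, against 36.5% of all genes tested, with a median log2 fold change of 2.07 where that of all genes was 0.02. Alas2 (ENSMUSG00000025270, chrX:150547375-150570638, GRCm38), the erythroid enzyme of the first, rate-limiting step, stood at 109, 101, 97.6, 91.2 and 91.5 CPM in day 0 replicates 1 to 5 and at 7087, 5396, 6417, 6800 and 3953 CPM in day 5 replicates 1 to 5. The groups did not overlap, and replicate 5 was the lowest of day 5. Its log2 fold change was 5.92 ± 0.18 (SE; adjusted p = 6.96e-11), a 60.4-fold rise. Alas1, the form of the same enzyme used outside the erythroid lineage, moved far less, from 19.1 ± 1.163 to 26.3 ± 4.63 CPM (mean ± SD, n = 5), a log2 fold change of 0.46. Fech, which inserts iron into protoporphyrin, rose 7.65-fold, from 69.2 ± 3.87 to 530 ± 74.8 CPM. Other enzymes of the pathway followed, with log2 fold changes of 2.46 for Ppox, 2.07 for Uros, 1.601 for Urod, 1.54 for Alad and 0.81 for Cpox.

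The globin genes rose with them, in libraries from which the authors had removed much of the globin RNA, so that the values are what that depletion left. Of 11 genes listed 5 passed the filter, and these had a median log2 fold change of 5.47. Over every listed gene with at least 1 count the median was 4.37 with edgeR and 3.87 with DESeq2; the globin chaperone Ahsp had no row in the table. Hbb-bs, an adult beta globin gene on chr7:103826534-103828096 (minus strand), stood at 28.3, 25.8, 26.2, 26.4 and 21.1 CPM at day 0 and at 2582, 2092, 2170, 2340 and 1273 CPM at day 5, in order of replicate. Each day 5 library lay far above all day 0 libraries, again with replicate 5 lowest, and the log2 fold change was 6.35 ± 0.20 (adjusted p = 8.36e-11). The neighbouring adult gene Hbb-bt rose by less, 8.46-fold, while Hba-a1 rose 85.7-fold and the theta-like genes Hbq1a and Hbq1b rose 44.5-fold and 38.6-fold. Hba-a1 has a near-identical copy, Hba-a2, which was listed at no more than 10 counts in any library, and the beta globin pair is also closely related; how the counting divided reads between such copies is not given in the sources used here. The embryonic genes Hba-x, Hbb-y and Hbb-bh1 reached at most 7 counts and were not tested, and Hbb-bh2 reached 1.

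The promoters of the first enzyme, of the beta globin gene and of the membrane gene Kel are shown because they hold the GATA motif bound by Gata1 and belong to genes that rose; Kel was picked for display after its window was seen. Each line runs 5′ to 3′ on the gene's own strand, from 250 bases before the RefSeq transcription start to 50 after it (GRCm38.p6), with all matches of 3 motifs on either strand in capitals: GATAA or its complement TTATC in each window, CCNCNCCC (the box bound by Klf1-type factors) or its complement in the Alas2 and Hbb-bs windows, and CCAAT in the Hbb-bs window.
Alas2 (chrX:150547167-150547466, plus strand): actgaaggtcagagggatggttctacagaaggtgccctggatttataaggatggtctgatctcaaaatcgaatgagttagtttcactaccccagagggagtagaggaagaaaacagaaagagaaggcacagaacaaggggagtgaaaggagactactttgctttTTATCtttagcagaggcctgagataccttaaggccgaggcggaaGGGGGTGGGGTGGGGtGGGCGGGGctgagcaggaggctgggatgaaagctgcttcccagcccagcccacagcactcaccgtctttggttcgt
Hbb-bs (chr7:103827879-103828178, minus strand): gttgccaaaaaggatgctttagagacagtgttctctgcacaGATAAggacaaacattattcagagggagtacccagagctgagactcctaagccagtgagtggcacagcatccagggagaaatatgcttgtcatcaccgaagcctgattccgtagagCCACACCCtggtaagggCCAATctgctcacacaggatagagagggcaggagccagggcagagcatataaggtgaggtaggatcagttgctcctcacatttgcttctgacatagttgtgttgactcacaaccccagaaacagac
Kel (chr6:41704276-41704575, minus strand): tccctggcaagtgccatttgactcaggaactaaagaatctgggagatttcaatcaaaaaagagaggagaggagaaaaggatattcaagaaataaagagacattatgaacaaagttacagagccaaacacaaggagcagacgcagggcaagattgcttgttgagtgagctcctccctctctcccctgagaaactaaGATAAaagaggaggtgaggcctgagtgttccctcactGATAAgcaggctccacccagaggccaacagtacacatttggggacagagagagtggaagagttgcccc

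GATAA on either strand lay in the windows of 77.8% of 9 globin and globin chaperone genes and of 40.7% of 27 red cell membrane genes, against 16.1% of the 8958 tested genes that matched a RefSeq window and 25.8% of all 27025 windows. It was found in 15.5% of 2665 windows of genes called higher past 0.58 and in 17.8% of 2488 called lower. Lists that fell or were mixed also held it, with 9 of 30 ATF4 pathway windows, 28.1% of 64 cytosolic ribosomal protein windows and 52.9% of 17 platelet gene windows. CCNCNCCC lay in the windows of all 7 heme enzyme genes that matched, but also in 69.1% of tested genes. These matches describe letters in a window and not binding; in Alas2 the 4 matches of CCNCNCCC lie in a G-rich run and begin 42, 40, 35 and 26 bases before the start, where the first 3 overlap and the last stands apart from them.

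Heme transport and breakdown moved in both directions, with 7 of 19 tested genes higher and 7 lower (36.8% each), close to the shares of all genes tested (36.5% and 34.7%). Abcb10 (chr8:123952459-123983122), the mitochondrial transporter of the inner membrane that the study deleted, stood between 111 and 123 CPM at day 0 and between 1145 and 1244 CPM at day 5. It rose 10.3-fold with little spread between libraries (log2 fold change 3.36 ± 0.09). The heme and porphyrin exporter Abcg2 rose 5.03-fold, the porphyrin transporter Abcb6 2.90-fold, and Eif2ak1, the kinase that heme inhibits, 4.83-fold. Hmox1, which breaks heme down, fell from 45.2 ± 3.56 to 9.22 ± 5.06 CPM (log2 fold change -2.29), and the plasma membrane heme exporter Flvcr1 fell by 0.69 on the log2 scale. The heme-regulated repressor Bach1 rose by 0.65 and the porphyrin carrier Tmem14c by 0.87. Slc25a38, the glycine carrier that feeds the pathway, fell by 0.45, a call lost without either of day 5 replicates 3 and 4 (adjusted p = 0.0564 and 0.0644).

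Among 25 tested genes of iron uptake, storage and iron-sulfur assembly, 10 were higher and 6 lower, not far from the shares of all genes. Without day 5 replicate 5 the numbers were 11 and 9. Tfrc, the transferrin receptor, stood at 950, 918, 999.8, 1219 and 854 CPM at day 0 and at 9361, 8164, 8106, 8681 and 2419 CPM at day 5. The day 5 libraries exceeded all day 0 libraries, but replicate 5 lay far below the other 4. Slc25a37 (mitoferrin-1), which carries iron into mitochondria, rose 6.79-fold, and the ferritin genes Fth1 and Ftl1 2.34-fold and 1.59-fold. The ferritin receptor Ncoa4 rose by 1.19 on the log2 scale, the iron exporter Slc40a1 by 0.92 and the iron-sulfur carrier Glrx5 by 0.77. The iron reductase Steap3 fell (log2 fold change -0.48).

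Membrane and skeleton genes of the red cell rose for the most part. Of 36 tested, 27 were called higher and 5 lower, and the list median was 1.67. Slc4a1 (chr11:102348824-102366203), the band 3 anion exchanger, had 4, 6, 2, 0 and 7 counts at day 0 and 7345, 8379, 5391, 9019 and 3932 counts at day 5. The highest day 0 library held 0.433 CPM and the lowest day 5 library 246 CPM, and the log2 fold change of 11.02 ± 0.42 was the highest of all genes tested. The skeleton proteins rose together: protein 4.2 (Epb42) 32.9-fold, tropomodulin (Tmod1) 11.3-fold, beta spectrin (Sptb) 9.75-fold and ankyrin (Ank1) 9.23-fold. The blood group genes Gypc, Kel and Rhd rose by 3.12, 2.72 and 2.57 on the log2 scale. Cd44, an adhesion receptor lost as erythroblasts mature, fell 4.92-fold, and Icam4 fell by 0.63 on the log2 scale.

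**Figure D2:**
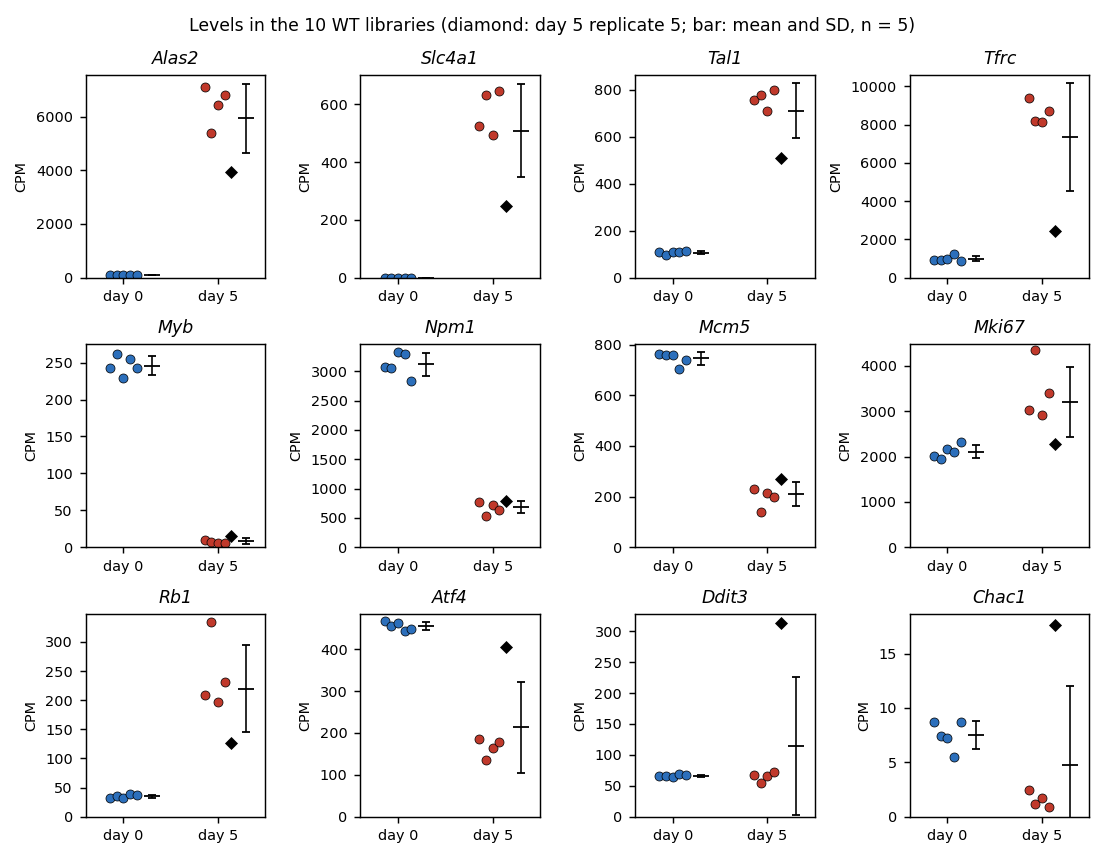
Points are CPM in single libraries for 12 genes, with the mean and SD (n = 5) beside each group; day 5 replicate 5 is drawn as a diamond, and the SD bar of Chac1 ends at the axis. Alas2, Slc4a1, Tal1 and Tfrc rose in every day 5 library and least in replicate 5, Myb, Npm1 and Mcm5 fell in every one, and replicate 5 alone stood high for Ddit3 (313 CPM) and Chac1 (17.7 CPM).

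Genes of late red cell enzymes and organelle removal were mostly higher, 30 of 37 tested against 2 lower (median 1.21). The autophagy kinase Ulk1 rose 6.53-fold and the mitophagy receptor Bnip3l 1.84-fold. The ubiquitin enzymes Ube2h and Ube2o, which take part in remodelling the reticulocyte proteome, rose 3.79-fold and 3.42-fold, and Prdx2, an abundant red cell peroxidase, 3.20-fold. Ypel4, required for normal red cell membrane shape, had no count in any day 0 library and 14 to 61 counts at day 5, at least 17.1-fold higher when day 0 is set to a floor of 3 counts per library. The 2 genes that fell were Pklr, the red cell pyruvate kinase (log2 fold change -0.93), and Car1. Carbonic anhydrase 1 (Car1, chr3:14766216-14808368) stood at 1469, 1414, 1551, 1405 and 1328 CPM at day 0 and at 43.1, 28.5, 34.3, 33.1 and 60.1 CPM at day 5. It fell 35.9-fold in all libraries, while Car2 rose 3.61-fold, from 435 ± 29.7 to 1572 ± 223 CPM.

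Transcription factors of the erythroid program shifted by less. Of 29 tested, 18 were higher (62.1%) and 7 lower (24.1%), beside 36.5% and 34.7% of all genes, with a median of 0.48. Gata1 went from 256 ± 20.9 to 329 ± 16.8 CPM and Klf1 from 330 ± 26.2 to 424 ± 56.0 CPM, each a log2 fold change of 0.36. Tal1 rose further, from 109, 96.9, 108, 107 and 112 CPM to 758, 778, 712, 801 and 511 CPM, a 6.68-fold change without overlap. Foxo3 (log2 fold change 3.32), Klf3 (2.52), Trim10 (2.46), Mxi1 (1.47), Nfe2 (1.38), E2f2 (1.00) and the Gata1 partner Zfpm1 (0.98) rose. Lmo2, the bridging protein of the Gata1 and Tal1 complex, fell by 1.61, and Stat5a, a signal carrier of the erythropoietin receptor, by 1.81. Gfi1b rose by 0.50, a call lost without day 0 replicate 1 or 4 (adjusted p = 0.0649 and 0.0572).

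Erythropoietin and KIT receptor signalling genes moved in both directions, 7 higher and 6 lower of 18 tested (38.9% and 33.3%), shares near those of all genes. Without day 5 replicates 2 and 5 the numbers were 8 and 10 of 19. The cytokine feedback gene Cish rose 41.7-fold and Socs3 15.9-fold. Pim1, a survival kinase and STAT5 target, stood between 46.7 and 59.2 CPM at day 0 and between 535 and 619 CPM at day 5, an 11.2-fold rise with no overlap. Erfe (erythroferrone), the hormone by which erythroblasts lower hepcidin, rose 7.92-fold, Jak2 2.25-fold and Epor itself 1.83-fold, while the phosphatase Ptpn6 fell 4.09-fold. Kit, the stem cell factor receptor, was not tested, with at most 9 counts in any library of either day. Beside these, the shared beta chain of the IL-3, IL-5 and GM-CSF receptors, Csf2rb, stood at 23.5, 28.1, 28.5, 26.8 and 38.3 CPM and then at 488, 1660, 487, 780 and 300 CPM. The groups did not overlap, and replicate 2 was highest and replicate 5 lowest. Its relative Csf2rb2 (log2 fold change 7.29) stood at 654 CPM in day 5 replicate 2 and between 44.1 and 238 CPM in the other 4, and without replicate 2 its log2 fold change was 6.43.

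Myb, Spi1 and Myc, regulators that hold progenitors in growth, fell. Myb (chr10:21124935-21160984) stood at 242, 262, 229, 254 and 242 CPM at day 0 and at 9.23, 6.96, 6.21, 6.08 and 14.8 CPM at day 5, a 28.2-fold fall (log2 fold change -4.82 ± 0.22, adjusted p = 1.33e-09). No day 5 library came near the day 0 range. Spi1 (PU.1), which Friend virus activates in lines of this kind, fell 5.53-fold and Myc 2.32-fold. Their list was mixed, with 12 of 25 progenitor and leukemia factors lower and 7 higher: the MYC antagonist Mxd1 rose by 3.59 and Runx1 by 2.05 on the log2 scale.

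Ribosome biogenesis genes fell without exception. All 49 factors listed were tested and all were called lower, against 34.7% of all genes, with log2 fold changes from -3.22 (Rrp9) to -0.80 (Ubtf) and a median of -2.21. Every one of the 49 had all day 5 libraries below all day 0 libraries, as did 28.9% of all genes tested. Npm1 (nucleophosmin, chr11:33152287-33163206), an abundant nucleolar protein, went from 3072, 3046, 3322, 3298 and 2835 CPM to 776, 538, 720, 632 and 780 CPM. Rrp9, a protein of the U3 snoRNP, went from 204, 221, 197, 193 and 209 CPM to 24.4, 10.4, 17.7, 18.9 and 38.4 CPM, lowest in replicate 2 and highest in replicate 5. Fibrillarin (Fbl) fell 6.34-fold, Nolc1 7.61-fold, the RNA polymerase I subunit Polr1b 4.06-fold and nucleolin (Ncl) 3.18-fold. The small nucleolar RNA host genes moved the same way, 11 of 11 tested lower (median -1.79), from Snhg6 (-0.69) to Snhg15 (-2.67), with Gas5 at -1.34.

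Ribosomal proteins themselves fell by less. Of 82 cytosolic ribosomal protein genes tested none was called higher (2 without day 5 replicates 2 and 5). Lower calls numbered 68 (79 without day 5 replicate 5), and the median was -0.60. Rpl22l1 (-1.57) fell furthest, Rpl12 fell by 1.15 and Rpl4 by 0.90. Mitochondrial ribosomal proteins fell further, 73 of 78 with a median of -1.12, Mrps28 (-2.79) the most. All 20 cytosolic aminoacyl-tRNA synthetases had negative log2 fold changes, 18 of them called, with a median of -1.23. Kars, which charges tRNA with lysine, fell 3.42-fold and Rars, for arginine, 2.97-fold. Aars was not called (log2 fold change -0.29) but was without day 5 replicate 5 (-0.87, adjusted p = 1.86e-06), in which this class lay closer to its day 0 level than in the other 4 day 5 libraries.

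The window of the nucleolar gene Pes1 (log2 fold change -2.28) is shown as an example of the E-box CACGTG, the motif bound by MYC and MAX, which lay in 25.6% of 43 ribosome biogenesis windows and 33.3% of 12 synthetase windows against 10.6% of tested genes. The share differed among lists in both directions of change: it was 42.9% of 7 heme enzyme windows, which rose, and 7.81% of 64 cytosolic and 7.25% of 69 mitochondrial ribosomal protein windows, which fell. The gene was picked for display after its window was seen, and the capitals mark the motif, which begins at base 3 after the start.
Pes1 (chr11:3963725-3964024, plus strand): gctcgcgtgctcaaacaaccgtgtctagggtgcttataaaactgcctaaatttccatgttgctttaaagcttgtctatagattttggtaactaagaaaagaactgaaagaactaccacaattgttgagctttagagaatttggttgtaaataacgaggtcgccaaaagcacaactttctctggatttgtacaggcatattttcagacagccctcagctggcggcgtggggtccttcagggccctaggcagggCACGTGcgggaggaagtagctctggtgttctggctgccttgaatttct

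DNA replication genes fell together. Of 52 replication and nucleotide supply genes, 51 were called lower (median -1.31) and only Cdc6, which loads the replicative helicase, was not (log2 fold change -0.08). The helicase subunit Mcm5 went from 762, 761, 761, 704 and 741 CPM to 229, 139, 214, 199 and 270 CPM, a 3.54-fold fall with no overlap. Gart of purine synthesis fell 6.66-fold, thymidine kinase (Tk1) 3.34-fold, Mcm2 3.14-fold, Rrm2 2.67-fold, the sliding clamp Pcna 1.92-fold, Rrm1 1.75-fold and the maintenance methyltransferase Dnmt1 1.61-fold. Of 55 tested replication-dependent histone genes, whose messages are made in S phase, 47 were lower and 2 higher (median -1.04), from Hist1h2an (-2.63) to Hist2h2be (0.54); many are near-identical, so reads may be divided between them. Of 46 mitosis and cytokinesis genes, 17 were higher (37.0%, near the share of all genes) and 11 lower, with a median of 0.02. The proliferation marker Mki67 stood at 2013, 1935, 2162, 2091 and 2311 CPM at day 0 and at 3035, 4359, 2911, 3410 and 2271 CPM at day 5, a log2 fold change of 0.60 ± 0.15. Day 5 replicate 5 lay within the day 0 range and the other 4 above it. Cdc25b, the phosphatase that starts mitosis, rose 7.22-fold, whereas the checkpoint kinase Bub1b (log2 fold change -0.92), Cdk1 (-0.68), survivin (Birc5, -0.53), Cdc20 (-0.53) and Aurkb (-0.46) fell. Top2a was called at 0.28, and this call was lost without day 0 replicate 5 or day 5 replicate 1 (adjusted p = 0.0666 and 0.0510).

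The window of Rrm1, a subunit of ribonucleotide reductase, is shown as an example of TTCCCGC, the motif of E2F factors, which lay in 35.6% of 45 replication windows against 9.03% of tested genes. Capitals mark TTCCCGC and 2 copies of CCAAT, a motif that lay in 27 of 45 replication windows and 78.4% of 37 mitosis windows against 40.0% of tested genes. CCAAT was as common in other lists, with 18 of 20 ER chaperone, 81.8% of 22 sterol synthesis and 81.3% of 16 MHC class I windows. This window, too, was picked after it was seen.
Rrm1 (chr7:102441445-102441744, plus strand): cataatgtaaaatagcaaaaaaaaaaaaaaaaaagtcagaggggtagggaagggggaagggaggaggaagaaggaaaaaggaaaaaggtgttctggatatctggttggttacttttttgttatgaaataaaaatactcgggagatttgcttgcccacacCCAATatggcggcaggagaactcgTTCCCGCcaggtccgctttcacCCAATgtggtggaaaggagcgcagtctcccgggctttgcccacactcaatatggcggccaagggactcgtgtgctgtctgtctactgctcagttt

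Several inhibitors of G1 progression rose. Of 33 tested G1 cyclin and inhibitor genes, 18 were higher (54.5%) and 11 lower (33.3%), beside 36.5% and 34.7% of all genes (median 0.53). The antiproliferative gene Btg2 went from 37.3, 24.1, 24.7, 24.9 and 22.9 CPM to 544, 490, 524, 563 and 410 CPM, an 18.9-fold rise in which day 0 replicate 1 lay above the other day 0 libraries. Gadd45a rose 10.2-fold. The retinoblastoma gene Rb1 stood at 32.8, 35.4, 33.0, 39.2 and 36.9 CPM and then at 208, 334, 198, 231 and 127 CPM, highest in replicate 2 and lowest in replicate 5, with no overlap between days. The inhibitor p27 (Cdkn1b) stood between 52.3 and 71.6 CPM and then between 198 and 245 CPM, a 3.88-fold rise, and Cdkn2c rose 2.07-fold. The pocket protein Rbl2 rose by 1.35, Ccnd2 by 0.82 and Ccnd3 by 0.56 on the log2 scale. Cdk4 fell 3.68-fold, Cdk6 1.99-fold and E2f1 1.94-fold.

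**Figure D3:**
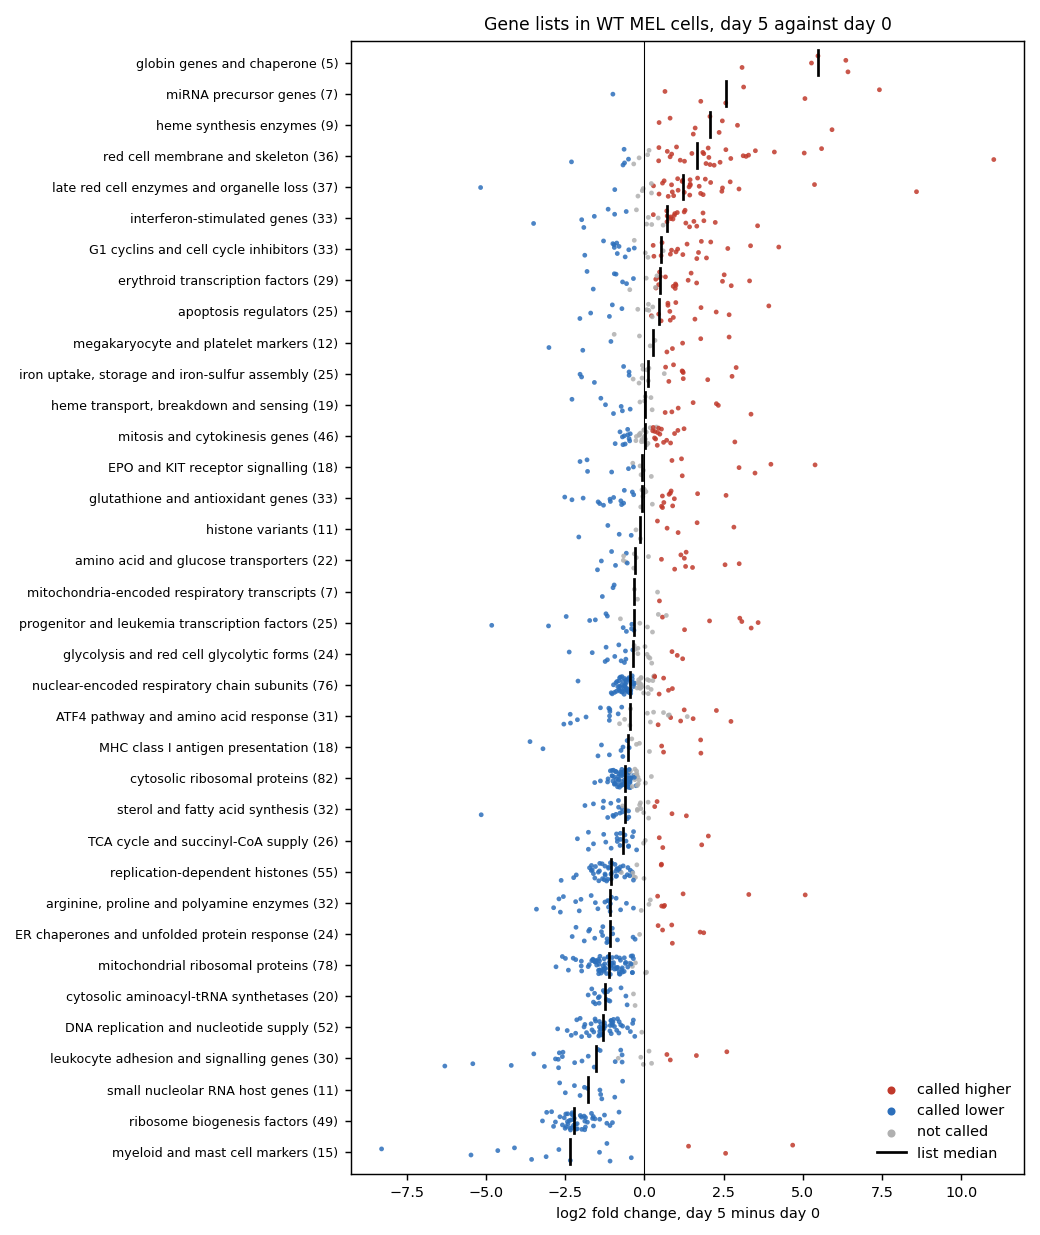
Each point is a tested member of a gene list and its horizontal place the log2 fold change, day 5 minus day 0; red was called higher, blue lower and grey not called, and the bar is the list median. Lists with at least 5 tested members are shown, with the number tested in parentheses, ordered from the globin genes (median 5.47) to the myeloid and mast cell markers (-2.34).

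The call of several amino acid stress genes depended on 1 library. In the list of the ATF4 pathway, by which cells respond to amino acid shortage and heme lack, 7 of 31 tested genes were higher and 13 lower (median -0.46); without day 5 replicate 5 the numbers were 7 and 18, and the median was -1.14. Atf4 (chr15:80255184-80257541) stood at 467, 455, 461, 444 and 448 CPM at day 0 and at 185, 134, 164, 179 and 405 CPM at day 5, so that replicate 5 lay near day 0 and the other 4 far below it (log2 fold change -1.09 ± 0.24, adjusted p = 0.00108). Ddit3 (CHOP), a target of ATF4, stood between 64.2 and 68.6 CPM at day 0 and at 68.0, 54.4, 65.3, 71.8 and 313 CPM at day 5. Its log2 fold change of 0.78 was not called (adjusted p = 0.103) and without replicate 5 it was -0.04. Chac1, which degrades glutathione, stood at 8.72, 7.43, 7.24, 5.53 and 8.70 CPM and then at 2.50, 1.13, 1.73, 0.929 and 17.7 CPM. Without replicate 5 its log2 fold change was -2.26 and called (adjusted p = 1.05e-05), against -0.62 with it (adjusted p = 0.401). Trib3 changed sign in the same way, from 0.75 (adjusted p = 0.378) to -1.31 without replicate 5 (adjusted p = 2.43e-06). The serine enzymes Psph (-2.54), Phgdh (-2.34) and Psat1 (-1.84), the mitochondrial enzyme Shmt2 (-2.11), asparagine synthetase Asns (-0.83) and the initiation factor Eif2s1 (-1.11) fell with all 5 libraries in the test, and Ppp1r15a, the phosphatase subunit that ends the response, rose 6.63-fold.

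Arginine, proline and polyamine enzymes fell for the most part, 22 of 32 tested against 7 higher (median -1.08). The urea cycle enzyme Ass1, which makes argininosuccinate, fell 6.48-fold from 4.73 ± 1.14 CPM, while Asl, which splits it to arginine, was not called (log2 fold change -0.10). The arginine transporter Slc7a1 fell by 0.57, a call lost without any of day 0 replicate 5 and day 5 replicates 1, 3 and 4 (adjusted p from 0.0653 to 0.0805). Polyamine synthesis and oxidation parted. Spermidine synthase, Srm, stood between 348 and 381 CPM at day 0 and at day 5 between 22.2 and 32.4 CPM in replicates 1 to 4 and at 62.0 CPM in replicate 5, and ornithine decarboxylase (Odc1) fell 2.16-fold. Spermine oxidase, Smox, went from 8.22, 7.14, 6.97, 7.04 and 10.7 CPM to 285, 229, 287, 305 and 244 CPM, a 33.6-fold rise with a log2 fold change of 5.07 ± 0.15. Neither gene's groups overlapped, and the antizyme Oaz1, which restrains Odc1, rose by 0.64 on the log2 scale. Ornithine aminotransferase (Oat) fell by 0.89. Outside these lists, Naprt, an enzyme of NAD synthesis that the study names, went from 1.76 to 3.94 CPM (log2 fold change 1.15 ± 0.28).

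Of 22 amino acid and glucose transporters tested 9 were higher (40.9%) and 6 lower (27.3%), beside 36.5% and 34.7% of all genes. Without day 5 replicate 5 the numbers were 10 and 11. The list median was -0.29, and over every listed gene with at least 1 count it was 0.49 with edgeR and 0.53 with DESeq2. The glycine transporter Slc6a9, which supplies heme synthesis, rose 5.83-fold, Slc38a5 rose 2.46-fold and Slc2a4 7.94-fold from 0.241 CPM, while the monocarboxylate carrier Slc16a1 fell 2.79-fold. In glycolysis 12 of 24 genes were lower and 3 higher (6 higher without replicate 5): Bpgm, which makes the red cell's 2,3-bisphosphoglycerate, rose 2.31-fold, whereas hexokinase 2 (Hk2) fell 3.13-fold, Ldha 2.24-fold and Tigar 5.18-fold. Of 26 TCA cycle and succinyl-CoA genes 20 were lower and 4 higher (2 higher without day 0 replicate 2; median -0.68), with Idh3a at -1.77 and Pdk2 at 2.02. Nuclear-encoded respiratory chain genes fell by less, 49 of 76 lower and 6 higher (10 higher without day 5 replicates 2 and 5; median -0.45), from Atp5g1 (-2.09) to Ndufa1 (0.88). Of 7 tested respiratory transcripts made in the mitochondrion, mt-Co1 rose by 0.47 on the log2 scale and 3 fell, mt-Nd1 (-1.33) the furthest. The list median was -0.32, and without day 5 replicate 2 it was -0.73 and 5 were lower. By library the median difference from day 0 was -1.92 in day 5 replicate 5 and between -0.43 and -0.13 in the other 4.

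Of 33 antioxidant genes 11 were higher (33.3%) and 15 lower (45.5%), beside 36.5% and 34.7% of all genes. Without day 5 replicate 5 the numbers were 12 and 18 of 34. Red cell members rose (Prdx2 above, Gpx1 1.85-fold, Mgst3 5.96-fold) and Gsta4 fell 5.71-fold. The ER chaperones fell, 17 of 24 lower against 6 higher (median -1.08): Hspa5 (BiP) 2.28-fold, Pdia4 3.72-fold and Sdf2l1 4.85-fold, while the stress sensor Ern1 rose 3.66-fold. Sterol and fatty acid synthesis fell in 18 of 32 genes and rose in 4 (median -0.63). Fasn fell by 0.71 and Tm7sf2 rose by 1.32 on the log2 scale. Among 25 apoptosis regulators 14 were higher and 5 lower. The BH3-only genes Bmf, Bcl2l11 (BIM) and Bbc3 (PUMA) rose 15.2-fold, 6.37-fold and 4.81-fold and the survival gene Bcl2l1 3.45-fold, whereas cytochrome c (Cycs) fell 4.10-fold.

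**Figure D4:**
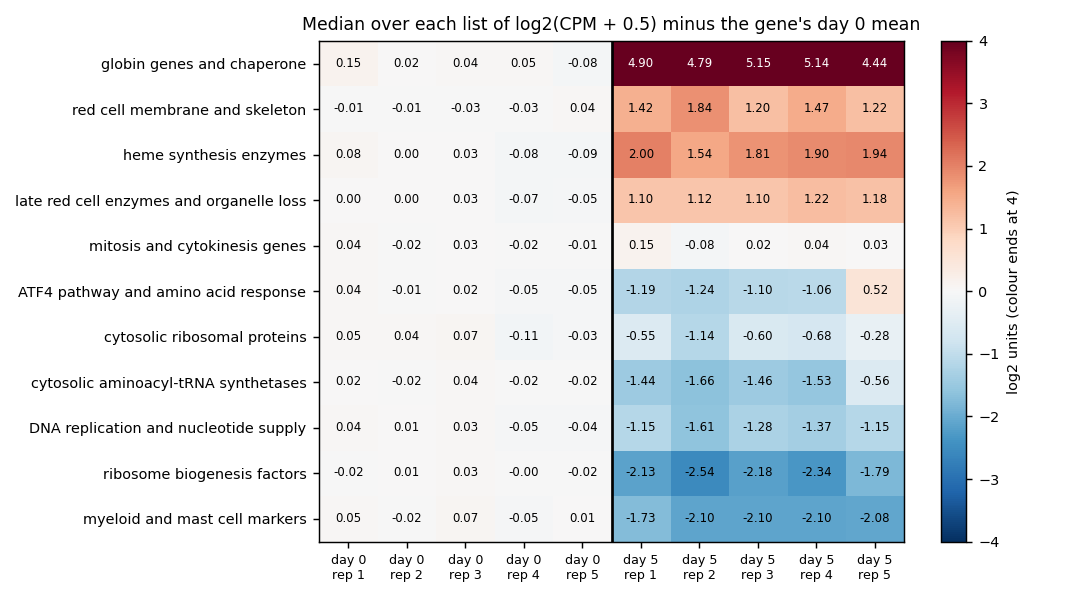
Each cell gives, for a gene list and a library, the median over the list's tested genes of log2(CPM + 0.5) minus the gene's day 0 mean, in log2 units, with red above and blue below 0. The ATF4 pathway stood at 0.52 in day 5 replicate 5 and between -1.24 and -1.06 in the other 4 day 5 libraries.

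Interferon and antigen presentation genes were mixed. Of 33 tested interferon-stimulated genes 20 were higher (60.6%) and 7 lower (21.2%), beside 36.5% and 34.7% of all genes (median 0.72). The interferon regulator Irf7 stood at 2.72, 2.38, 2.50, 2.16 and 1.29 CPM at day 0 and at 12.6, 8.55, 8.95, 12.8 and 9.34 CPM at day 5, and Gbp2 rose 11.9-fold from 0.112 CPM. Oasl1 went the other way, from between 45.1 and 47.6 CPM to 4.94, 2.42, 3.10, 3.36 and 6.58 CPM, an 11.3-fold fall, and Bst2 fell 3.76-fold. Of 18 MHC class I presentation genes 10 were lower (55.6%) and 4 higher (22.2%). The immunoproteasome subunits Psmb10 and Psmb8 fell 12.2-fold and 9.19-fold, B2m fell by 0.68 on the log2 scale, and H2-T23 rose 3.44-fold.

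Leukocyte genes that passed the filter were mostly lower at day 5, and since some, such as Tyrobp, passed only through their day 0 level, these counts are a description. Of 15 myeloid and mast cell genes that passed the filter, out of 31 listed, 12 were lower and 3, Csf2rb among them, higher. Their median of -2.34 was, over every listed gene with at least 1 count, -1.12 with edgeR and -0.49 with DESeq2. In addition, 21 of 30 leukocyte adhesion and signalling genes were lower (median -1.52). Tyrobp, an adaptor of activating immune receptors, had 301, 235, 384, 175 and 243 counts at day 0 and 0, 1, 0, 2 and 0 counts at day 5, a ratio of 377 (exact 95% interval 129 to 1832, counting error only). Histidine decarboxylase (Hdc), the enzyme of histamine synthesis, fell 44.3-fold, the actin regulator Coro1a 8.57-fold, Spn (CD43) 8.91-fold, Ptprc (CD45) 4.42-fold and Cd79b 7.96-fold. Ptprc and Cd79b were the only 2 of 19 listed lymphoid and stromal markers that passed the filter (median -2.57). Over every gene of that list with at least 1 count the median was 2.17 with edgeR and 2.26 with DESeq2. Cd47, the signal that protects red cells from phagocytosis, rose 6.06-fold. Platelet genes were mixed, 5 higher and 3 lower of 12 tested: Vwf rose 6.37-fold, Plek 3.43-fold and Itga2b 2.30-fold, while Pf4 fell 3.85-fold, from 231 to 60.1 CPM, and Gp5 8.06-fold.

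Among the 12 protein-coding genes with the largest rises, beside Slc4a1, were 3 apolipoprotein L genes on chromosome 15. Apol11a had at most 2 counts in any day 0 library and 296 to 937 at day 5, a ratio of 1327 (454 to 6436). Apol11b rose 383-fold, from 1.165 ± 0.287 to 450 ± 177 CPM, and Apol10a had 1 count in all at day 0 and 15 to 96 at day 5. These genes are close relatives, and how reads shared between them were counted is not given in the sources used here. The ion channel gene Asic4 (123-fold), the matrix gene Ltbp2 (ratio 263, interval 112 to 812) and Ripor3 (83.7-fold) also rose, as did Ypel4, Csf2rb2, Hba-a1 and Cpeb4. Cpeb4, an RNA-binding regulator of translation in maturing erythroblasts, stood between 1.78 and 4.53 CPM at day 0 and at 191, 980, 178, 354 and 114 CPM at day 5. Replicate 2 lay well above the other 4, and without it the log2 fold change was 6.07 rather than 6.86.

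The 12 largest falls held 2 gene clusters. Pilra, Pilrb1 and Pilrb2, paired immune receptors on chromosome 5, fell at least 14.6-fold, 70.6-fold (interval 30.002 to 218.5) and 200-fold; Pilrb1 and Pilrb2 are close copies. Gml and Gml2, neighbours on chromosome 15, fell 87.7-fold and 110-fold, the latter overlapping Cyp11b1 on the other strand over 20.5% of its length. Gpr174, Cd53, Slc26a1 and Thy1 followed with log2 fold changes of -6.52, -6.30, -5.95 and -5.83, together with Tyrobp, Allc (ratio 163, interval 28.97 to 6484) and Cd200r3 (ratio 70.1, interval 33.8 to 175). Going by counts alone, 27 genes had at most 3 counts in each day 0 library and at least 10 in each day 5 library, 21 of them protein-coding, and 27 genes, 13 of them protein-coding, showed the reverse.

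By counts gained rather than by fold, non-coding RNA led. Rn7sk, the RNA that holds the elongation factor P-TEFb inactive, stood at 19174, 19988, 19428, 15623 and 16851 CPM at day 0 and at 44952, 30544, 45721, 44230 and 22442 CPM at day 5, a 2.06-fold rise. Malat1 (chr19:5795690-5802672), a long nuclear RNA, went from 713, 838, 878, 1084 and 907 CPM to 7159, 16527, 7875, 10900 and 10812 CPM, a 12.1-fold rise. Neither gene's groups overlapped. Tfrc, Alas2, the mitochondrial ribosomal RNA mt-Rnr2, mt-Co1, the thioredoxin inhibitor Txnip (6.80-fold) and Hbb-bs were also among the 10 that gained most CPM. Because the authors depleted mitochondrial as well as cytoplasmic rRNA, the mt-Rnr2 level is what that depletion left. The gene that lost most was Gm26917 (chr17:39843013-39846341, 3.17-fold), which the annotation classes as a long non-coding RNA. Whether its reads include rRNA, which the authors depleted, was not tested. Next came the RNase P RNA Rpph1 (1.53-fold), the elongation factor Eef1a1 (1.38-fold), Npm1, Hspa5 and Hsp90aa1 (3.26-fold). Rpl4, Car1, the chaperonin subunit Cct5 (3.02-fold) and Rack1 (1.51-fold) completed the 10 that lost most. The Rpph1 call did not hold without day 0 replicate 1 or 2 or day 5 replicate 2 or 4 (adjusted p from 0.0506 to 0.0909).

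RNA classes also shifted. Of 321 tested genes of the annotation's TEC class, which holds transcripts without experimental proof, 237 were higher (73.8%) and 8 lower. Of 51 sense-intronic genes 38 were higher (74.5%) and 1 lower, where 36.5% and 34.7% of all genes were. The share of all counts in these 2 classes rose from between 0.0722% and 0.0871% at day 0 to between 0.127% and 0.460% at day 5. The exact two-sided permutation test gave p = 0.00794, the smallest that 5 against 5 libraries allow (0.0265 adjusted over 10 measures of composition). Day 5 replicates 1 to 4 also detected more genes, with at least 1 count for 22529, 25916, 29986 and 26299 of them. Day 0 libraries detected between 18878 and 20233. Day 5 replicate 5 detected 18948, and its share of these 2 classes was the lowest of that day (0.127%). Whether the rise of these classes goes with the larger number of genes detected was not tested. Processed pseudogenes fell in 267 of 598 cases (44.6%) and rose in 43, and snoRNA genes fell in 55 of 104 (52.9%) and rose in 8. Mitochondrial genes held 0.939% to 1.335% of counts at day 0 and 1.253% to 2.401% at day 5, ranges that overlapped through replicate 5. This share includes mt-Rnr2, a target of the rRNA depletion, which went from a mean of 2797 to 7924 CPM. The 10 most counted genes of a library held 9.86 ± 0.856% of counts at day 0 and 11.7 ± 1.38% at day 5 (exact permutation p = 0.0397, adjusted 0.0567), a difference of 1.82 percentage points. Linker histone H1f0, a mark of cells that have left the cycle, rose 7.07-fold, and H2afy (macroH2A) fell 4.20-fold. They were among 11 histone variants of which 5 rose (45.5%) and 4 fell (36.4%), not far from the shares of all genes.

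Reads over microRNA genes in these total RNA libraries come from precursor transcripts, not mature microRNAs. Of 21 precursor and host genes listed 7 passed the filter, 6 of them higher and 1 lower. The neighbouring genes Mir144 and Mir451a on chromosome 11, erythroid microRNAs under Gata1, had 0 to 6 and 0 to 1 counts at day 0. At day 5 Mir144 had 133, 52, 72, 104 and 107 counts and Mir451a 100, 37, 47, 116 and 90, lowest in replicate 2 for both. Mir144 rose 33.4-fold, and the Mir451a ratio was 230 (interval 63.4 to 1909); Mir451b lies on the other strand of the same bases, and the strand setting of the counting is not given in the sources used here. Mir142 rose 5.92-fold. Mir17hg, host of the growth-associated miR-17 to miR-92 cluster, fell 1.99-fold, from 383 ± 45.2 to 192 ± 29.5 CPM. The mature sequences of the rising pair and, for contrast, of the members of the falling cluster that share a seed are given from RefSeq (GRCm38.p6, 5′ to 3′, plus strand), with the seed, bases 2 to 8, in capitals. miR-17-5p and miR-20a-5p have the same seed, as do miR-19a-3p and miR-19b-3p, and neither is shared with the pair on chromosome 11.
miR-144-3p (chr11:78073047-78073066): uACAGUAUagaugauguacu
miR-144-5p (chr11:78073010-78073032): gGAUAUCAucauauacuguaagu
miR-451a (chr11:78073186-78073207): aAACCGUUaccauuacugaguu
miR-17-5p (chr14:115043684-115043706): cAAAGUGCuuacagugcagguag
miR-20a-5p (chr14:115044183-115044205): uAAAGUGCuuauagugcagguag
miR-19a-3p (chr14:115044048-115044070): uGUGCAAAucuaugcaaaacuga
miR-19b-3p (chr14:115044358-115044380): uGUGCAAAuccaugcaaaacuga

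The Abcb10-null clone shows which WT changes also appeared in cells without the transporter. Over the 20 libraries of both genotypes at days 0 and 5, 14020 genes were tested for a difference between their day 5 to day 0 changes, with the interaction term of edgeR's quasi-likelihood test: 2360 (16.8%) changed upward in the null cells relative to WT and 2057 (14.7%) downward. Scaled by total counts only, the split was 1763 and 2827. Because the null cells are a single clone, the genotype cannot be told apart from other differences of that clone. Abcb10 itself was at 65.5 to 76.9 CPM at day 0 and 171 to 231 CPM at day 5 in null cells, against 1136 to 1230 CPM in WT at day 5 on the scale of this fit (interaction log2 -1.84, adjusted p = 7.08e-10). The null libraries still held reads of the gene. Of 4649 genes called higher in WT, 1377 (29.6%) rose less, or fell, in the null and 213 (4.58%) more. Of 4416 called lower, 1718 (38.9%) fell less, or rose, and 241 (5.46%) more. The WT calls and the interaction use the same WT libraries. Choosing genes by their WT change favours a smaller change in the null, so these shares are a description only. Among the 4417 genes called in the interaction 1482 had fitted changes of opposite sign in the 2 genotypes.

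Globin genes and Alas2 showed no called difference. None of the 5 globin genes was called in the interaction, but the null cells held less at both days: Hbb-bs stood at 4.78 ± 1.51 CPM at day 0 and 406 ± 138 CPM at day 5, against 25.7 ± 2.601 and 2068 ± 487 CPM in WT (mean ± SD, n = 5). Alas2 changed by 5.89 in both genotypes on the log2 scale, from a lower start in the null (38.3 ± 2.70 CPM at day 0, against 98.7 ± 7.64 CPM in WT) to a lower day 5 level (2271 ± 464 CPM, against 5865 ± 1259 CPM). Of the 9 heme enzymes 7 were called below WT, with list medians of 2.04 in WT and 1.56 in the null. Cpox and Alas1 had fitted changes of opposite sign (0.79 and 0.44 in WT, -1.12 and -0.56 in the null), and Alad changed by 1.52 and 0.06 (interaction adjusted p = 1.32e-07). Tfrc rose by 2.87 in WT and changed by -0.45 in the null. Membrane genes were called below WT in 16 of 36 cases and above in 3, and late red cell genes in 19 and 4 of 37. Over all genes tested 14.7% were called below and 16.8% above. For Slc4a1 the difference of -2.56 was not called (adjusted p = 0.183).

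Ribosome biogenesis factors were called above WT in 45 of 49 cases, with list medians of -2.24 in WT and -1.13 in the null: Npm1 fell by 2.20 in WT and by 0.64 in the null, and Rrp9 by 3.24 and 2.08. Cytosolic ribosomal proteins (71 of 82 above WT), synthetases (18 of 20) and replication-dependent histones (41 of 58) stood likewise, and synthetase medians were -1.26 in WT and 0.34 in the null. Of 52 DNA replication genes 8 were called above WT and 11 below, where 16.8% and 14.7% of all genes tested were. Among the 11 was Mcm5, which fell by 2.59 in the null and by 1.85 in WT. ATF4 pathway genes were called above WT in 25 of 31 cases, with medians of -0.47 and 1.34; Atf4 itself changed by -1.12 in WT and 0.81 in the null, Ddit3 by 0.76 and 2.91, and Chac1 by -0.63 and 3.93. Without WT day 5 replicate 5 these 3 interaction values were 2.29, 2.97 and 6.21 in place of 1.92, 2.16 and 4.56. Interferon-stimulated genes stood below WT in 30 of 36 cases and above in none, with medians of 0.75 in WT and -1.78 in the null. Irf7 went from 2.22 to 10.3 CPM in WT and from 60.4 to 9.57 CPM in the null (means). The day 5 ranges of the genotypes overlapped and the day 0 ranges did not.

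**Figure D5:**
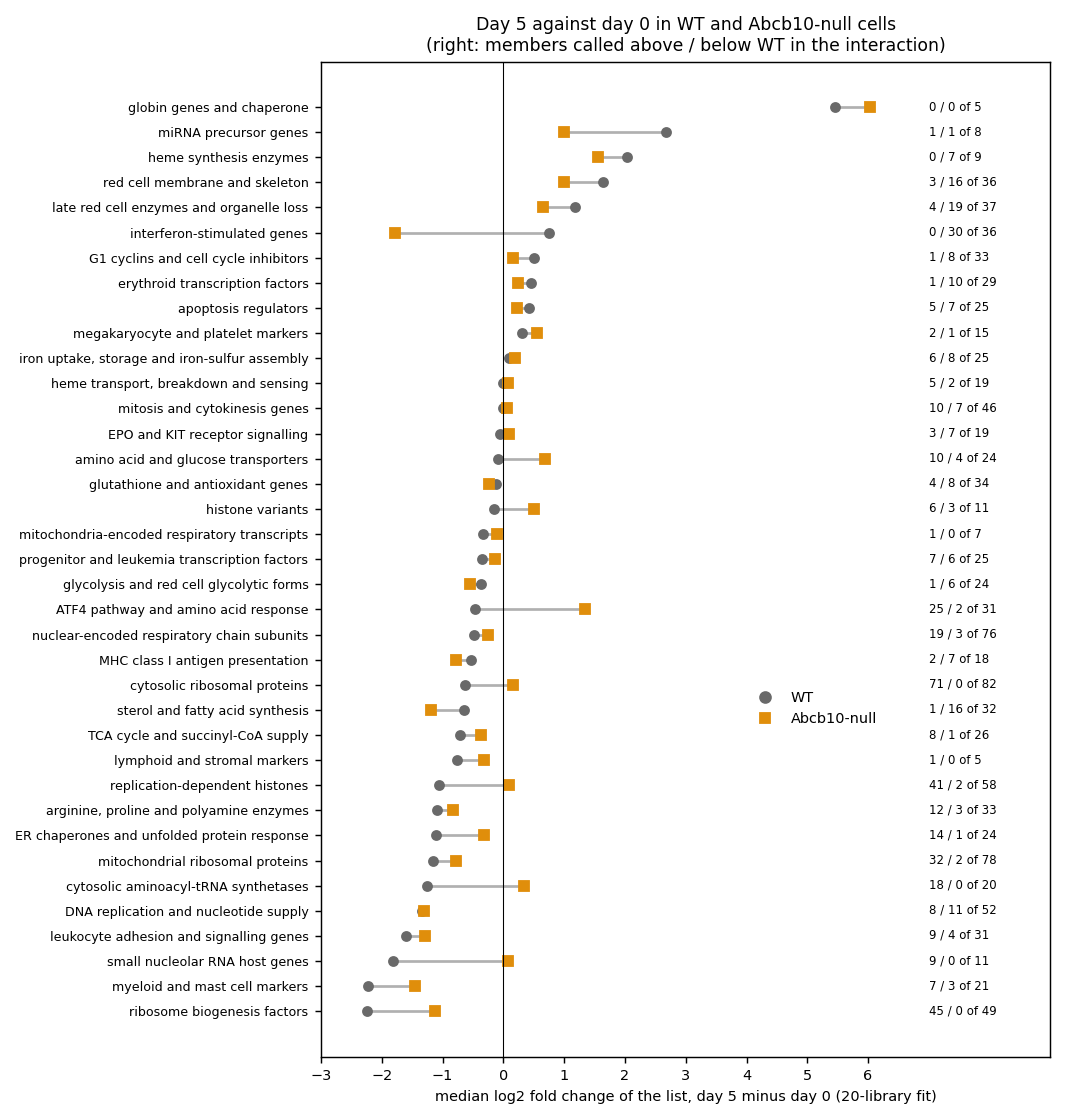
Circles give the median log2 fold change of each gene list, day 5 minus day 0, in WT cells and squares that in Abcb10-null cells, both from the fit over 20 libraries; the figures at the right count the members whose change was called above or below WT, of those tested. The interferon-stimulated genes (0.75 and -1.78) and the ATF4 pathway (-0.47 and 1.34) have medians of opposite sign in the 2 genotypes, and the globin list has no member called.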

How the data were processed

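Total RNA of 10 WT libraries, 5 of day 0 and 5 of day 5, was analysed, with 10 Abcb10-null libraries of the same days for the interaction. Per the labels and the study's methods, the authors removed rRNA and globin RNA before stranded library preparation, aligned reads with STAR 2.6.1b to GRCm38 (mm10) and counted them per gene with featureCounts 1.6.3. The deposited values are these raw counts, not normalized; strand and multi-mapping settings are not given in the sources used here. Identifiers of 37 genes, with 0.0124% of WT counts, were not in the annotation.

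Groups follow the labels. Genes were filtered by filterByExpr and fitted with TMM factors and the quasi-likelihood test of edgeR 4.0.16 (R 4.3.3), and p-values were adjusted by Benjamini-Hochberg across every tested gene and called below 0.05. Adjusted p-values in the text are of this test. CPM are counts over the TMM-scaled library size. Fold changes of genes with at most 3 counts in every library of a group are given as ratios with exact 95% Poisson intervals or against a floor of 3 counts per library, and cover counting error only. Only the edgeR and DESeq2 fits were tested on simulated counts, in which few genes changed. Such counts cannot show how the fits behave where most genes change, as they do here.

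Gene lists and members were chosen with earlier results of these data known, so lists carry no test of their own. Named genes are list members picked for their roles, the extremes of each list, the 12 protein-coding genes with the largest rise and fall among called, non-overlapping genes with a mean of at least 1 CPM, the 10 that gained or lost most CPM, the 5 extremes of the interaction in each direction, and genes that the study names. Some of these genes are not reported here. Alternatives were DESeq2 1.42.0, other scalings, count filters and gene sets, all 30 libraries, a replicate block, leaving out each library, and, chosen after seeing the data, day 5 without replicates 2 and 5. Of the listed genes 892 matched a RefSeq promoter window; proteins were not used here.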

Additional observations from a re-analysis of the deposited data

Results flagged for a closer look

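Dixon's test was applied to groups of 5 libraries, for the genes shown by library and for measures of library composition. Those genes were chosen with earlier results known, so the count is a description. In 7 of 72 groups, 1 library lay further from the others than the limit of 0.71 allows, where chance gives about 1 in 20. Of these, 5 were day 5 replicate 5: Tfrc stood at 2419 CPM (8106 to 9361 CPM in the other 4), Srm at 62.0 CPM (22.2 to 32.4), Atf4 at 405 CPM (134 to 185), Ddit3 at 313 CPM (54.4 to 71.8) and Chac1 at 17.7 CPM (0.929 to 2.50). Cpeb4 stood at 980 CPM in day 5 replicate 2 (114 to 354 CPM in the other 4), and Btg2 at 37.3 CPM in day 0 replicate 1 (22.9 to 24.9 CPM).

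The change from day 0 to day 5 differed between Abcb10-null and WT cells for 4417 genes by the interaction term of edgeR's quasi-likelihood test, and 17 of these are given here: named genes and the extremes in each direction. Of genes described above, the interaction log2 (null minus WT) was -1.84 for Abcb10 (adjusted p = 7.08e-10), 1.56 for Npm1 (2.30e-08), 1.165 for Rrp9 (0.00470) and -0.74 for Mcm5 (0.00238). It was 1.92 for Atf4 (adjusted p = 9.58e-06), 2.16 for Ddit3 (0.000954), 4.56 for Chac1 (2.28e-05) and 2.10 for Rars (1.38e-09). Interferon-stimulated genes went the other way, with -4.86 for Irf7 (adjusted p = 4.42e-11), -4.53 for Gbp2 (2.79e-05) and -5.03 for Oasl2 (1.90e-06). The myeloid receptors Fcgr1 (4.81, adjusted p = 6.13e-07) and Ccr1 (4.10, 4.83e-05) and the gene AI839979 (4.93, 0.000210) stood above WT. Oasl2, Ccr1 and AI839979 did not pass the filter in the WT libraries alone. They were tested only with the null libraries added, so their values are a description. At WT day 5 Ccr1 had at most 2 counts and AI839979 at most 10. The remaining extremes spread widely between libraries: Rn7s2 (5.97, adjusted p = 0.00172) ran from 23.1 to 5514 CPM in null cells at day 5, Lars2 (-5.49, 0.00746) from 10.3 to 500.1 CPM in null cells at day 0 and from 13.7 to 477 CPM in WT at day 5, and Gm8189 had -4.78 (0.000635).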

How the results depend on the processing

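Against 9065 genes called, DESeq2 called 11025 in all, upper quartile scaling 9128, a fit over 30 libraries 9746 and a filter of 10 counts in each library 8020. Genes called higher numbered 4649 and, with every gene of at least 1 count, 7810. Past a log2 fold change of 0.58 they numbered 3747, and 5712 by DESeq2 and 7084 with every gene of at least 1 count. The part played in these larger numbers by the wider detection of genes in day 5 replicates 1 to 4 was not tested. Scaling by total counts only raised the median of all genes by 0.102 on the log2 scale and gave 5118 higher and 4003 lower, and for the interaction 1763 above and 2827 below WT in place of 2360 and 2057. Leaving out each library in turn gave 8725 to 9609 genes called, 4423 to 4879 higher, 4248 to 4730 lower and 3855 to 5228 in the interaction. The difference in the share of the 10 most counted genes ran from 1.57 to 2.40 percentage points, with an exact permutation p above 0.05 without any of 7 libraries (up to 0.0794).

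Replicate numbers were only numbers: same-number deviations correlated between -0.12 and 0.05, with 0 of 5 pairs over 0.1, and a replicate block called 8816 genes (4442 higher, 4374 lower) and 4241 in the interaction. With the block Trib3 changed sign to -0.68, and the Lars2 interaction was -4.81 (adjusted p = 0.0504). Leaving out 1 library, Trib3 ran from -1.31 to 1.03 and Ddit3 from -0.044 to 0.97, lowest for both without day 5 replicate 5; Trib3 stood at -1.17 without day 5 replicates 2 and 5. Cdc6, not called, stood at 0.020 with total counts only and 0.035 without replicates 2 and 5, and Asl, also not called, at 0.0039 with total counts only; these causes were not tested. Of 4730 values of named genes under alternatives, 4687 kept direction and side of the threshold, and calls were lost for 7 genes under at least 1 setting. Depth limits genes with few counts, such as Mir451a and the embryonic globins.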
